A study of Mus musculus with 29 samples.

Results

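The measurement described here is the RNA held by ribosomes of microglia, the resident macrophages of the brain, set against the RNA of the homogenate those ribosomes were taken from. Its members are 12 of the 29 libraries of the series, a positive fraction and an input from each of 6 Cx3cr1-cre/ERT2+; NuTRAP+ mice with the animal numbers 155, 192, 194, 209, 210 and 277, matched by animal number. In these mice, called Cx3cr1-NuTRAP below, a tamoxifen-inducible Cre is expressed from the Cx3cr1 locus and removes a stop sequence in front of the NuTRAP construct, which then yields an EGFP-tagged copy of the ribosomal protein L10a and a biotinylated, mCherry-tagged RanGAP1. The Cre was knocked into 1 copy of Cx3cr1, so that every mouse of both groups carried 1 intact copy of that gene. All mice received tamoxifen at 100 mg/kg daily for 5 days at about 3 months of age, and both sexes were used, without a label that gives the sex of a mouse. One side of each brain was homogenised with cycloheximide, the cleared supernatant was kept as input, and ribosomes caught with an anti-GFP antibody gave the positive fraction. The unbound supernatant, called the negative fraction, and 3 Aldh1l1-cre/ERT2+; NuTRAP+ mice, in which the same construct is driven in astrocytes, enter only where named. Cx3cr1 is also active in macrophages at the borders of the brain, so the Cre driver marks these cells together with microglia.

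In translating ribosome affinity purification (TRAP), a messenger RNA is recovered when a tagged ribosome sits on it, so the positive fraction is a picture of translation in the tagged cells plus whatever untagged RNA clings to the beads. Microglia descend from yolk sac macrophages and depend on signals through the CSF1 receptor and on the transcription factor PU.1. They survey the tissue with motile processes, take up debris and synapses through complement, Fc and TREM2-linked receptors, and digest it in lysosomes. Both fractions of a mouse come from the same homogenate, so a difference between them concerns which RNA was recovered. The libraries cannot tell the number of tagged cells of a type from the amount of RNA per cell.

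The positive libraries held 15486808 to 19831391 counts and the inputs 18095743 to 26858047. In a principal component analysis of the 12 libraries the first component carried 65.0% of the variance and set the positive fractions (15.3 to 65.9) apart from the inputs (-42.1 to -32.2). The second component carried 18% and divided the positive fractions among themselves, with mice 155 (29.4), 194 (30.7) and 192 (1.18) on one side and mice 209 (-31.5), 210 (-40.5) and 277 (-20.3) on the other. Xist, the RNA that coats the inactive X chromosome, stood at 116 to 170 CPM (counts scaled to the size of the library) in the inputs of mice 155, 192 and 194 and at 1.23 to 1.51 in the other inputs. Ddx3y, on the Y chromosome, was reversed, at 0.263 to 0.439 against 80.2 to 82.5 CPM. The labels do not give sex, and the Xist level and the division of the positive fractions fell on the same mice and cannot be told apart here. Results that rest on one side of this division are given mouse by mouse.

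The 4 marker genes of the fraction rose in 6 of 6 mice, with no overlap between positive fractions and inputs, as for 10.9% of all genes tested. C1qa, the A chain of complement C1q, stood at 412, 582 and 1003 CPM (lowest, median, highest) in the positive fractions and at 36.5, 41.3 and 46.9 in the inputs. Cx3cr1, the fractalkine receptor, stood at 197, 252 and 445 against 24.5, 27.4 and 29 CPM. Aif1, which encodes the cytoskeletal protein IBA1, had 45.6, 65.4 and 128 against 3.34, 4.41 and 5.92 CPM. For each of these genes mouse 194 was the highest and mouse 209 the lowest of the positive fractions. Bin2, a membrane-bending BAR-domain protein of blood cells at chr15:100641082-100669500 (mm10), had 65.1, 89.5 and 171 against 4.36, 6.06 and 6.57 CPM. Its log2 fold change was 4.12 ± 0.22 (SE; adjusted p = 2.60e-08, edgeR quasi-likelihood test with Benjamini-Hochberg adjustment), or 17.4-fold. Rpl10a, the endogenous counterpart of the ribosomal tag, had 131, 158 and 174 against 81.7, 92.9 and 121 CPM and rose by 0.71 ± 0.10 on the log2 scale. Rangap1, the counterpart of the nuclear tag, rose by 0.30 ± 0.07, with 0.17 (adjusted p = 0.153) without mice 209, 210 and 277.

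Across the 13840 genes tested, 3217 (23.2%) were higher in the positive fraction and 3548 (25.6%) lower at an adjusted p under 0.05. This fit did not pair libraries by mouse, and with mouse as a block 2625 were higher and 3311 lower. Direction was the same in 6 of 6 mice for 2112 of the higher and 2865 of the lower genes. The rises were far larger than the falls. Of the higher genes 776 (5.61% of those tested) exceeded 2-fold and 304 (2.2%) exceeded 5-fold, whereas 247 lower genes (1.78%) exceeded 2-fold and 2 (0.0145%) exceeded 5-fold. Genes over 5-fold higher took 0.298% to 0.318% of an input's counts and 1.28% to 5.19% of a positive library's. Genes that did not pass the test held 49.8% to 51.3% of the input counts and 48.2% to 51.8% of the positive counts. Without mice 155, 192 and 194, 236 genes were over 5-fold higher and 468 over 2-fold lower, and without mice 209, 210 and 277 these numbers were 405 and 217.

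**Figure D1:**
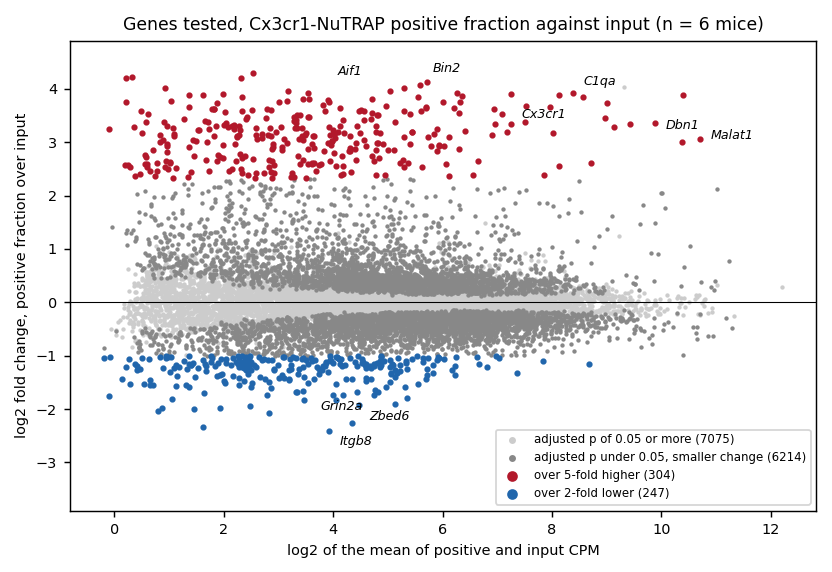
Each point is one of the 13840 genes tested; the horizontal axis is the log2 of the mean of positive and input CPM and the vertical axis the fitted log2 fold change of the positive fraction over input (6 mice). The 304 genes over 5-fold higher (red) reach 4.29, whereas the 247 genes over 2-fold lower (blue) reach -2.42.

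Promoter sequences are shown for 3 of the genes described below, since PU.1 binds a purine-rich core and its own gene was among the largest rises. They run from 250 bases before to 50 bases after the gene start as RefSeq gives it (GRCm38.p6), 5′ to 3′ on the gene's strand, and capitals mark the letters GAGGAAGT, a PU.1 core, on either strand. C1qc lies on the minus strand (promoter chr4:136892865-136893164), Ctss on the plus strand (chr3:95526536-95526835) and Cx3cr1 on the minus strand (chr9:120068247-120068546).
C1qc: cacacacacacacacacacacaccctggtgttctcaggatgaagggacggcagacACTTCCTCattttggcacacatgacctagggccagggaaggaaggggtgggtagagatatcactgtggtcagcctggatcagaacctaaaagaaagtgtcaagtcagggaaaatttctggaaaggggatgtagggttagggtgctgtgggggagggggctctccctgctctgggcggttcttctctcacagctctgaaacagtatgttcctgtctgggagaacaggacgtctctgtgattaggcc
Ctss: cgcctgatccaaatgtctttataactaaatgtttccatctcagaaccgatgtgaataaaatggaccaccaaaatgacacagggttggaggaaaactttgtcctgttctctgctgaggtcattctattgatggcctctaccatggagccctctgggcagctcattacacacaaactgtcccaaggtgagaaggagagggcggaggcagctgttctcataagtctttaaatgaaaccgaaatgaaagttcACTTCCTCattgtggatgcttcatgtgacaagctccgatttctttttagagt
Cx3cr1: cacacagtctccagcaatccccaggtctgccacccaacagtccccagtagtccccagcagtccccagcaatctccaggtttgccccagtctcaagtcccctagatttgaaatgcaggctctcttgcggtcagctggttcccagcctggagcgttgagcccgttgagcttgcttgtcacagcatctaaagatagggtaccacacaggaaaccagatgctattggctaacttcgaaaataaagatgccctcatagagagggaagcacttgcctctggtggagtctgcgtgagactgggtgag

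The match in C1qc began 195 bases before the gene start and the match in Ctss 2 bases before it, both on the strand opposite to the gene, and the Cx3cr1 promoter held none. Promoters were at hand for 14 of the 20 largest rises, and these 2 were the ones with a match. Among the promoters at hand, the letters were found in 35 of 230 (15.2%) for genes over 5-fold higher, 64 of 608 (10.5%) for genes over 2-fold higher, 7 of 188 (3.72%) for genes over 2-fold lower, 366 of 10975 (3.33%) for all genes tested and 997 of 27025 (3.69%) for the whole table. An interferon regulatory factor pattern, GAAANNGAA, was found in 13% of promoters of genes over 5-fold higher, 9.04% over 2-fold lower and 8.56% of all tested. The cyclic AMP response element TGACGTCA was found in 0.435%, 4.26% and 3.54%, and in 1.32% over genes more than 2-fold higher. A promoter was matched by symbol for 75.7%, 76.4% and 79.3% of these 3 groups, under the 80% needed for a comparison, so the shares describe the promoters held and no more. Both strands were searched, and a match in these letters is not a binding site.

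The 20 largest rises, among genes over 20 counts in every library and higher in 6 of 6 mice, had log2 fold changes of 3.68 to 4.12. Their groups did not overlap, which held for 1505 of the 3217 higher genes and follows in part from how the 20 were chosen. The 3 chains of C1q (C1qa, C1qb, C1qc), the receptors and adaptors that carry phagocytic signals (Tyrobp, Fcer1g, Fcgr3, Trem2, Clec5a), the phosphatase Ptpn6 that restrains them, and the lipopolysaccharide co-receptor Cd14 with the Toll-like receptor partner Ly86 made up 11 of the 20. Sfpi1, the gene for PU.1 (also written Spi1), stood at 43.1, 54.5 and 109 CPM in the positive fractions and at 3.43, 3.8 and 4.88 in the inputs, a log2 fold change of 3.95 ± 0.22. Tyrobp, the ITAM adaptor DAP12, had 84.0, 130 and 263 against 8.30, 9.45 and 10.6 CPM (3.92 ± 0.25), and its partner Trem2, a receptor for lipids, had 104, 135 and 243 against 8.72, 11.1 and 12.5 CPM (3.76 ± 0.19). In all 3 the lowest positive fraction lay far above the highest input. Ctss, the lysosomal protease cathepsin S, had 661, 919 and 1461 against 58.1, 73.0 and 82.3 CPM (3.73 ± 0.17). Further members were Hcls1, a cortical actin adaptor of blood cells (4.08 ± 0.23), Lyl1, a basic helix-loop-helix factor of blood precursors (3.91 ± 0.25), Fcrls, a receptor-like gene used as a microglial marker (3.90 ± 0.25), and Crybb1, a crystallin gene (3.81 ± 0.22).

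**Figure D2:**
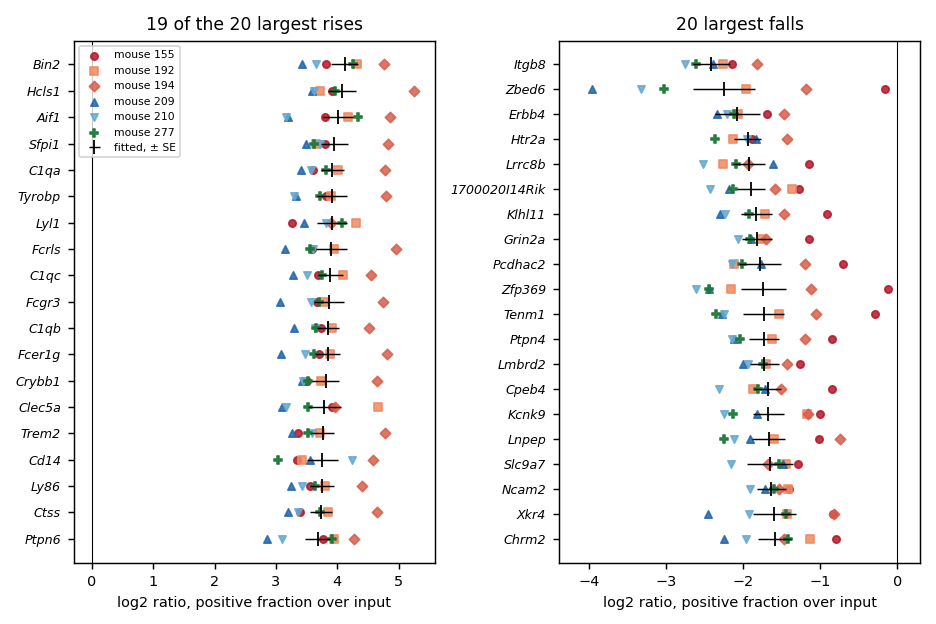
Points give the log2 ratio of positive fraction over input within each of the 6 mice for 19 of the 20 largest rises (left) and the 20 largest falls (right); black marks give the fitted value ± SE. Mouse 194 is farthest to the right for most rises, and of the falls Zbed6 runs from -3.96 to -0.16.

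Per kilobase of transcript, abundant genes over 5-fold higher included Ctss (mean 706 CPM per kilobase in the positive fraction), C1qb (654) and C1qa (600). Ppp1r9a (636), Dbn1 (558) and Malat1 (425) stood in the same range on this scale, but their positive fractions did not behave alike between mice and are described further on.

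Gene lists fill in the classes behind these leaders. Each is given by the number of its tested members that passed, and by its median log2 fold change, beside -0.00, 23.2% higher and 25.6% lower over all genes tested; lists share some members. Counts near those shares, as for glycolysis, translation factors and cortical glutamatergic neurons, are no result about the list. Of 20 genes of homeostatic microglia, 20 rose and 16 exceeded 5-fold (median 3.19), led by Fcrls, Crybb1, Olfml3 (3.62 ± 0.20) and the lectin Siglech (3.54 ± 0.21). Of 21 tested of 22 genes of Fc receptors and ITAM signalling, 21 rose and 19 exceeded 5-fold (3.51). Fcgr4 reached 4.22 ± 0.49 from inputs of 0 to 0.301 CPM, so its size rests on few input counts and depends on the prior count. Of 16 tested of 20 complement genes, 11 rose and 2 fell (1.55; 0.79 without mouse 194 and 2.14 without mouse 192). The C1q chains and the integrin chain of complement receptor 3, Itgb2 (3.53 ± 0.19), rose most, and the fallers, named after their values were seen, were the regulators Cd55 (-0.64) and Serping1 (-0.60). All 7 genes of the phagocyte NADPH oxidase rose over 5-fold (3.37), among them the cytosolic subunits Ncf1 (3.58 ± 0.20) and Ncf4 (3.44 ± 0.31).

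Pattern recognition receptors rose for 15 of 17 tested of 21 (median 2.67). Cd14 (3.76 ± 0.25), Ly86 (3.75 ± 0.19), Tlr13, a sensor of bacterial ribosomal RNA (3.41 ± 0.23), and Cd180 (3.27 ± 0.24) led. Tlr3, the sensor of double-stranded RNA (0.10), and Nod1 (0.04), named after their values were seen, did not pass. Cytokine and chemokine receptors rose for 19 and fell for 2 of 24 tested of 26 (1.74). Csf1r, the receptor on which microglial survival depends, stood at 589, 862 and 1591 CPM in the positive fractions and at 79.0, 84.9 and 87.1 in the inputs (3.45 ± 0.21), with no overlap. The interleukin receptor Il21r rose by 3.16 ± 0.24. The 2 that fell, seen afterwards, were Il1rap (-0.88), a subunit of the interleukin-1 receptor, and Il6st (-0.24), the shared subunit gp130.

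Secreted cytokines and chemokines were divided. Of 15 tested of 24, 8 rose and 3 fell (median 0.24). Ccl12 (4.02 ± 0.38), Ccl6 (3.28 ± 0.21), Ccl9 (3.12 ± 0.23) and Tgfb1, for transforming growth factor beta 1 (2.85 ± 0.21), rose. The inputs of Ccl12 were at 0 to 0.374 CPM, so the size of its rise rests on few input counts and depends on the prior count. It passed the count filter through the positive fractions. Il33 (-0.96), Csf1 (-0.47) and Tgfb2 (-0.46), named after their values were seen, fell. Csf1 encodes a ligand of Csf1r. The G protein-coupled and ion channel receptors for nucleotides and lipids rose for 12 and fell for 2 of 14 tested of 17 (3.07), led by the adenosine receptor Adora3 (3.58 ± 0.29), the UDP receptor P2ry6 (3.48 ± 0.22) and the oxysterol receptor Gpr183 (3.26 ± 0.36). P2ry14 (-0.55) and S1pr1 (-0.45), seen afterwards, fell.

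Lysosomal genes rose unevenly. Of 36 tested, 27 rose, 5 of them over 5-fold, and 2 fell (median 0.75). Cathepsin S, the glycoprotein Cd68 (3.18 ± 0.20) and cathepsin H, Ctsh (2.85 ± 0.20), were among the largest rises. Over the broader gene ontology term lysosome 74 of 205 tested rose and 43 fell, with a median of 0.08. The cholesterol transporter Npc1 (-0.49) and the membrane receptor Scarb2 (-0.59), chosen after their values were seen, fell. Transcription factors of the myeloid lineage rose for 18 and fell for 2 of 25 tested of 27 (1.26), with Sfpi1, Lyl1, Irf5 (3.31 ± 0.22) and Irf8 (3.30 ± 0.18) in front and Mef2a (-0.74) and Bhlhe40 (-0.55), seen afterwards, lower. Actin regulators of blood cells rose for 23 of 25 tested of 26 (2.86), led by Abi3 (3.55 ± 0.26), a subunit linked to the WAVE complex, and the nucleotide exchange factor Vav1 (3.51 ± 0.18).

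Antigen presentation genes rose for 15 of 15 tested of 21 (median 2.10). They included the costimulatory ligand Cd86 (3.52 ± 0.22) and the class II chaperone subunit H2-DMb1 (3.05 ± 0.26). The immunoproteasome subunits Psmb8 (3.02 ± 0.15) and Psmb9 (2.70 ± 0.26), which cut peptides for presentation, belong to this list and were also the largest rises of the proteasome list. Interferon response genes rose for 11 of 19 tested of 22, with none over 5-fold (0.47). Bst2, which tethers virus particles, was the highest of them (2.31 ± 0.20). Among genes linked to disease-associated microglia 8 rose and 3 fell of 14 tested of 16 (0.42), and apart from Tyrobp, Trem2, the lectin Clec7a (3.02 ± 0.32) and the tetraspanin Cd9 (1.06 ± 0.08) the members that rose stayed under 2-fold. The 3 lower ones, seen afterwards, were Gpnmb (-0.57), Axl (-0.50) and Csf1.

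Hexokinases gave the largest rises in glycolysis. Of 18 glycolytic genes tested, 4 rose and none fell (median 0.06), and without mice 155, 192 and 194 16 rose (0.35). Hk2 stood at 32.6, 39.6 and 63.8 CPM in the positive fractions and at 8.40, 9.70 and 10.8 in the inputs (2.15 ± 0.15), and Hk3, a blood cell hexokinase, rose by 3.27 ± 0.27. The liver-type phosphofructokinase Pfkl rose by 0.25 ± 0.06, with 0.11 (adjusted p = 0.313) without mice 209, 210 and 277. Of 19 cholesterol synthesis genes tested 9 fell and 3 rose (median -0.24). Among the lower were Sc5d (-0.69 ± 0.09) and Hsd17b7 (-0.70 ± 0.12).

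**Figure D3:**
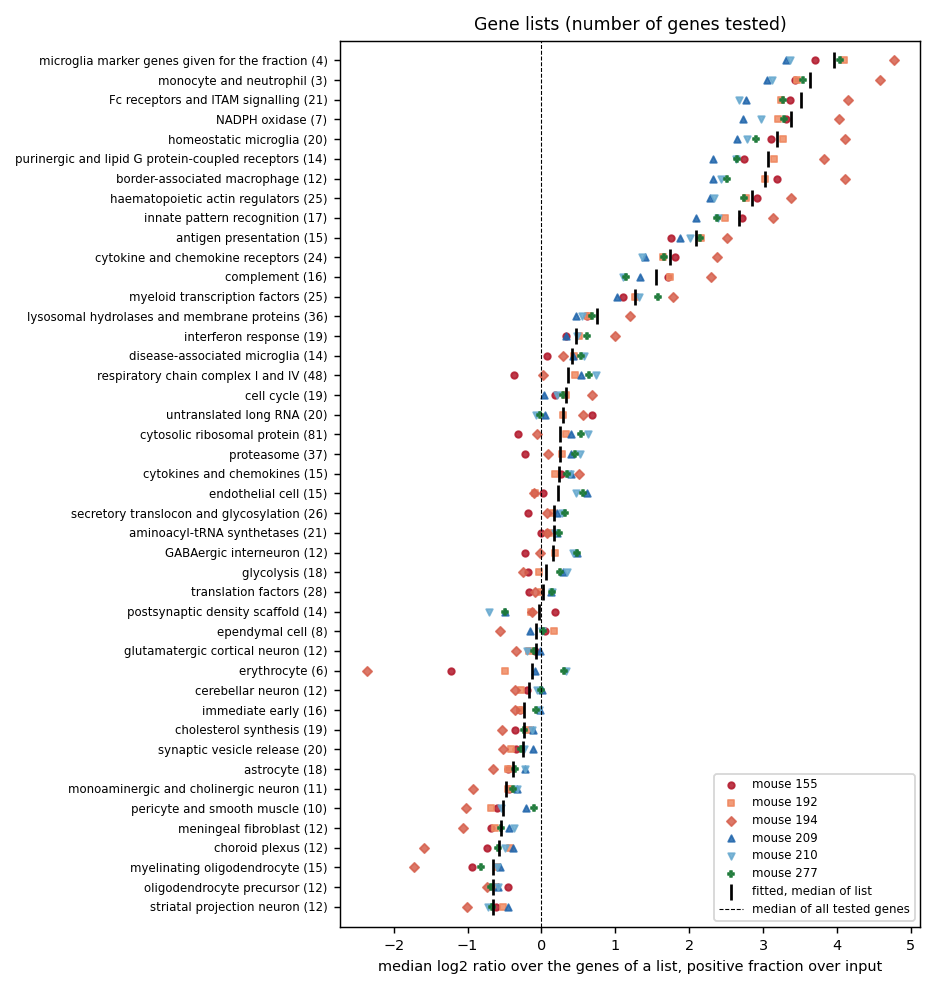
Each row is a gene list with at least 3 tested genes; coloured points give the median log2 ratio of positive fraction over input of the list in each mouse, black bars the median fitted value and the dashed line the median of all tested genes. The Fc receptor list lies between 2.68 and 4.15 and the NADPH oxidase list between 2.73 and 4.02 in the 6 mice, and the oligodendrocyte, striatal and choroid plexus lists lie below 0 in every mouse.

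Gene symbol families, taken as the letters before the first digit of a symbol, were ranked over the 172 families with at least 10 tested genes. C-type lectins (Clec) had the highest median, 1.31, with 8 of 15 higher, followed by Tnfrsf (0.80), Irf (0.59), Cd (0.53), Myo (0.48), Il (0.45), Itga (0.45) and the histocompatibility and other genes under H (0.42). Clec4a3 (3.63 ± 0.32), Tnfrsf17 (3.75 ± 0.55), Cd52 (3.95 ± 0.26), the class I myosin Myo1f (3.41 ± 0.23) and the class II genes H2-Ob (3.89 ± 0.28) and H2-Oa (3.89 ± 0.27) were among their most changed members not yet named. In the Itga family Itga10 changed most (1.44). With mouse as a block it had 0.99 (adjusted p = 0.0894), and without mice 155, 192 and 194 -0.14. By gene ontology, cytokine receptor activity had the highest median of the 33 terms examined (1.44; 15 of 22 higher), then chemotaxis (0.59; 24 of 44).

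Markers of other cell types were read in the same libraries. All 12 markers of border-associated macrophages rose, 10 of them over 5-fold (median 3.02), and their summed level went from 28.5 to 49.6 CPM in the inputs to 170 to 538 in the positive fractions. Pf4, a chemokine gene of these macrophages, stood at 5.22, 10.1 and 22.2 CPM against 0.440, 0.529 and 0.791 (4.29 ± 0.34). Cd209f (3.63 ± 0.35) and the folate receptor Folr2 (3.61 ± 0.28) were next. The summed level of the 4 microglial markers was 720 to 1748 CPM. None of these border markers was at 0. How much of the rise of shared macrophage genes such as Csf1r comes from these cells was not tested.

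Of 12 monocyte and neutrophil markers 3 were tested, and the lysozyme genes, Lyz1 (3.76 ± 0.21) and Lyz2 (3.64 ± 0.19), rose. The other 9, which include Ccr2, Ly6c2, S100a8 and S100a9, were too low to test. Of 12 T and B lymphocyte markers 2 were tested, Cd4 (0.19 ± 0.15) and, seen afterwards, Lck (0.58 ± 0.28), and neither passed. The 6 erythrocyte genes tested did not pass either (median -0.12). Hba-a1 had a log2 fold change of -0.16 ± 0.51, and by mouse the list ran from -2.37 in mouse 194 and -1.22 in mouse 155 to 0.33 in mouse 210. Endothelial markers rose for 6 of 15 tested and fell for none (0.22). Ly6c1, an endothelial surface antigen, stood at 13.7, 24.9 and 36.2 CPM in the positive fractions and at 12.2, 12.6 and 14.6 in the inputs. The groups overlapped, and the highest 3 positive values were those of mice 209, 210 and 277. Without those 3 mice its log2 fold change was 0.43 (adjusted p = 0.0607) and 3 endothelial genes rose, and without mice 155, 192 and 194 it was 1.41 and 12 rose.

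Of the other non-neuronal lists, 6 had more genes lower than higher. Oligodendrocyte genes fell for 13 of 15 (median -0.65), precursor genes for 10 of 12 (-0.65), astrocyte genes for 12 of 18 (-0.39), meningeal fibroblast genes for 8 of 12 with 1 higher (-0.55), choroid plexus genes for 6 of 12 (-0.58) and pericyte and smooth muscle genes for 5 of 10 with 1 higher (-0.51). The pericyte median turned to 0.15, with 3 higher and 4 lower, without mice 155, 192 and 194. Ugt8a, which makes the myelin lipid galactosylceramide, had 13, 32.4 and 36.8 CPM against 69.5, 77.3 and 81.1 (-1.37 ± 0.18), and Aqp4, the astrocyte water channel, had 77.5, 108 and 137 against 189, 215 and 245 (-0.98 ± 0.12). Neither overlapped between groups, and mouse 194 was the lowest positive fraction for both. The summed levels of the 18 astrocyte genes stayed at 4604 to 6999 CPM in the positive fractions, against 7421 to 8050 in the inputs. Myh11, a smooth muscle myosin, was the single riser among pericyte genes (2.66 ± 0.58), with 0.73 without mice 155, 192 and 194. None of the 8 ependymal genes tested passed (-0.07).

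Neuronal lists were mixed. Striatal projection neuron genes fell for 8 of 12 (median -0.66), cerebellar genes for 5 with 2 higher of 12 (-0.16; 0.03 without mice 155, 192 and 194), cortical glutamatergic genes for 4 of 12 (-0.08) and monoaminergic and cholinergic genes for 4 with 1 higher of 11 (-0.48). Synaptic vesicle release genes fell for 10 with 1 higher of 20 table rows (-0.25), postsynaptic scaffold genes for 5 of 14 (-0.04; -0.55 without mice 155, 192 and 194) and immediate early genes for 7 with 1 higher of 16 (-0.23). Tbr1, a factor of deep-layer cortical projection neurons, fell by 0.66 ± 0.10 on the log2 scale, the striatal phosphodiesterase Pde10a by 0.90 ± 0.09 and the early factor Nr4a3 by 1.5 ± 0.24. The interneuron list had a median above 0, with 5 higher and 1 lower of 12 (0.15). Vip, a peptide of a class of inhibitory interneurons, had 29.3, 44.6 and 69.8 CPM against 14.5, 19.2 and 26 (1.29 ± 0.18), with every positive fraction above every input. Pvalb (0.62 ± 0.11) and Npy (0.58 ± 0.12) rose and Reln (-0.69 ± 0.10) fell. Without mice 209, 210 and 277 Npy was at 0.25 (adjusted p = 0.0946) and 3 genes of the list rose and 2 fell, and without mice 155, 192 and 194 9 rose. Th, the enzyme that makes the precursor of dopamine, rose by 0.74 ± 0.11. These transcripts mark neurons, and how they came into the positive fraction was not tested.

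Lists of the general machinery of the cell had small medians that differed between mice. Of 81 cytosolic ribosomal protein genes 30 rose and none fell (median 0.25). Within mice this median was -0.32 in mouse 155 and -0.06 in mouse 194 but 0.34, 0.39, 0.54 and 0.64 in mice 192, 209, 277 and 210. Respiratory chain genes of complexes I and IV rose for 31 of 48 (0.36; -0.37 in mouse 155 to 0.74 in mouse 210) and proteasome genes for 21 with 1 lower of 37 (0.25; -0.23 to 0.52). Without mice 155, 192 and 194 the higher genes numbered 81, 46 and 33 in these lists, and without mice 209, 210 and 277 they numbered 3, 0 and 4. Rps27l, a variant ribosomal protein gene, was the largest rise of its list (0.90 ± 0.16). Smaller lists were mixed: aminoacyl-tRNA synthetases (10 higher, 1 lower of 21), translation factors (6 higher, 1 lower of 28), secretory translocon and glycosylation genes (9 higher, 6 lower of 26) and cell cycle genes (8 higher, 2 lower of 19). Their medians were 0.17, 0.02, 0.17 and 0.33. Translation factor genes rose for 16 and fell for 2 without mice 155, 192 and 194 (0.19), and aminoacyl-tRNA synthetase genes rose for 5 and fell for 1 without mice 209, 210 and 277 (0.02). Ssr4, a subunit of the translocon, rose by 0.78 ± 0.10 and the replication helicase subunit Mcm3 by 1.38 ± 0.14. The cell cycle genes Mki67, Ccnb2 and Tyms were also higher in the pooled test. Without mice 155, 192 and 194 they had 0.29, 0.49 and 0.02 (adjusted p = 0.485, 0.204 and 0.92), and none passed.

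The second principal component, which divided the positive fractions, was read through the 20 genes with the highest loading on it. They were picked after their values were seen and carry no test of that component. The 20 genes with the lowest loading, also seen afterwards, included Pomc, the haemoglobin genes Hba-a1, Hba-a2, Hbb-b1 and Beta-s, and the myeloid Fcgr4, Ccl12 and Gpr84. The 20 with the highest loading were of several kinds, among them Xist, the collagen genes Col24a1, Col11a1 and Col7a1, the receptor Tnfrsf25 and the imprinted Peg3. They also held several genes for proteins of the actin cytoskeleton, some of which, chosen after their values were seen, are given here. Ppp1r9a, for the spine protein neurabin (chr6:4903320-5165661), stood at 5056, 2922 and 5699 CPM in the positive fractions of mice 155, 192 and 194, at 1193 in mouse 277 and at 147 and 148 in mice 209 and 210, against 139 to 185 in the inputs. Dbn1, for drebrin, which binds actin in dendritic spines (chr13:55473428-55488076), stood at 3586, 1988 and 3698 CPM in mice 155, 192 and 194, 744 in mouse 277 and 150 and 144 in mice 209 and 210, against 150 to 186. Limch1, which activates myosin (chr5:66745840-67057159), had 2219, 1113 and 2078, then 515, then 75.4 and 81.2 CPM, against 91.8 to 115. For all 3 the positive fractions of mice 209 and 210 lay below the input of the same mouse.

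The pooled log2 fold changes hide this division. They were 3.88 ± 0.81 for Ppp1r9a, 3.35 ± 0.73 for Dbn1 and 3.29 ± 0.74 for Limch1 (adjusted p = 0.00167, 0.00224 and 0.00270), and with mouse as a block 2.91, 2.45 and 2.40 (0.0501, 0.0464 and 0.0617). Without mice 155, 192 and 194 they were 1.49, 1.08 and 1.07, and none passed. Fbxo34 (3.17 ± 0.71), the cross-linker Actn2 (3.09 ± 0.70) and the membrane-linked Svil (2.54 ± 0.64) also stood higher in the positive fractions of mice 155, 192 and 194 than in that of mouse 277, and higher there than in those of mice 209 and 210. With mouse as a block they were 2.30, 2.32 and 1.84 (adjusted p = 0.0525, 0.0517 and 0.0690), and without mice 155, 192 and 194 0.90, 0.91 and 0.57, where none passed. Plec, Macf1 and Iqgap1 are cytoskeletal genes also among the 20 with the highest loading. With the block they had 0.98, 0.68 and 1.29 (adjusted p = 0.27, 0.39 and 0.14), and none passed. Of the 20 genes with the highest loading 16 were higher and 1 lower in the pooled test (23.2% and 25.6% of all genes). With the block 3 were higher and 0 lower, where 2625 and 3311 of all 13840 genes were called. In the positive fraction of Aldh1l1-NuTRAP mice against their negative fraction, which shares no library with these, 9 of 18 tested rose (26.8% of all genes), and 12 with mouse as a block (37.0%), including Limch1 (3.24 ± 0.26), Ppp1r9a (2.60 ± 0.23) and Dbn1 (2.28 ± 0.17).

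Malat1, a nuclear long RNA at chr19:5795690-5802671, stood at 4619, 4357 and 5380 CPM in the positive fractions of mice 155, 192 and 194 and at 866, 995 and 1596 in mice 209, 210 and 277. Its inputs were 404 to 426 in the former and 282 to 322 in the latter, and its pooled log2 fold change was 3.05 ± 0.45. Xist was at 2435, 1556 and 3213 CPM in the positive fractions of mice 155, 192 and 194, log2 ratios of 4.39, 3.35 and 4.24 over the inputs of the same mice, and at 1.23 to 1.51 CPM in the inputs of mice 209, 210 and 277. The pooled log2 fold change of Xist, 4.03, did not pass (adjusted p = 0.124), whereas with mouse as a block it was 2.92 (adjusted p = 0.00611). Among 20 untranslated long RNAs 6 rose and 1 fell (median 0.29; 0.68 in mouse 155 and -0.08 in mouse 210), with Kcnq1ot1, an antisense RNA of an imprinted domain, at 1.23 ± 0.28. Without mice 155, 192 and 194 6 rose and 7 fell, and without the other 3 mice 12 rose and 2 fell.

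**Figure D4:**
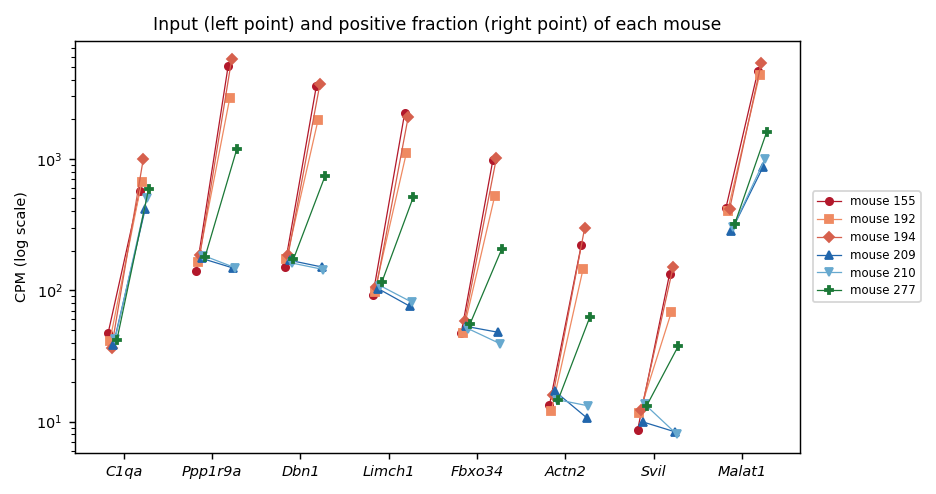
For each gene and mouse a line joins the CPM of the input (left) and of the positive fraction (right), on a log axis. C1qa rises in all 6 mice to between 412 and 1003 CPM, whereas Ppp1r9a, Dbn1, Limch1, Fbxo34, Actn2 and Svil rise in mice 155, 192, 194 and, less, 277 and are below the input in mice 209 and 210.

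The 20 largest falls, chosen by the same rule, ran from -2.42 to -1.59 on the log2 scale. Their groups did not overlap, which held for 1939 of the 3548 lower genes (every positive fraction lay below every input for 14.1% of genes tested). Itgb8, the integrin chain that releases active transforming growth factor beta (chr12:119162803-119238276), stood at 3.45, 4.89 and 6.02 CPM in the positive fractions and 16.2, 25 and 36.2 in the inputs, 5.33-fold lower (adjusted p = 3.21e-06). Its inputs fell into 16.2 to 17.9 CPM in mice 155, 192 and 194 and 32.1 to 36.2 in the other 3. Zbed6, a domesticated transposase that acts as a repressor, lies within an intron of Zc3h11a, so that reads of the pair may be mixed, and had 2.86, 6.07 and 12.0 against 13.4, 33.4 and 54.4 CPM (-2.25 ± 0.40). The drop of Zbed6 was small in mouse 155 (log2 ratio -0.16) and large in mouse 209 (-3.96). Without mice 209, 210 and 277 its log2 fold change was -1.08.

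Receptors and channels were among the rest. Erbb4, a neuregulin receptor of interneurons, had 1.63, 2.80 and 3.98 CPM against 6.57, 10.7 and 17.7 (-2.08 ± 0.29). Htr2a, a serotonin receptor of cortical neurons, had 1.72, 2.10 and 3.30 against 6.66, 9.20 and 10.3 (-1.95 ± 0.18). Grin2a, a subunit of the NMDA receptor, had 4.10, 4.76 and 5.91 against 9.20, 18.1 and 22.6 (-1.82 ± 0.20). In each of the 3 the lowest input was that of mouse 155. Lrrc8b, a subunit of volume-regulated anion channels, had 5.93, 8.77 and 14 against 22.8, 36.1 and 43.0 CPM (-1.92 ± 0.21). The potassium channel Kcnk9 (-1.67 ± 0.20), the muscarinic receptor Chrm2 (-1.59 ± 0.21) and the sodium-proton exchanger Slc9a7 (-1.65 ± 0.29) were in the same group. Adhesion proteins of neurons gave Pcdhac2 (-1.79 ± 0.27), Tenm1 (-1.74 ± 0.26) and Ncam2 (-1.63 ± 0.19). The remaining members were the translation regulator Cpeb4 (-1.68 ± 0.17), the phosphatase Ptpn4 (-1.73 ± 0.20), the aminopeptidase Lnpep (-1.67 ± 0.22), Klhl11 (-1.83 ± 0.20), Zfp369 (-1.74 ± 0.30), Lmbrd2 (-1.73 ± 0.19), Xkr4 (-1.60 ± 0.28) and the uncharacterised 1700020I14Rik (-1.90 ± 0.18).

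Among gene symbol families, the Frizzled receptors (Fzd), which bind Wnt ligands, had the lowest median, -0.56, with 5 of 10 lower, and 3 of the 4 protocadherin families, adhesion proteins of neurons, were among the lowest 8. The non-clustered Pcdh genes fell for 11 of 11 (-0.52), the Pcdhga cluster for 9 of 12 (-0.53) and the Pcdhb cluster for 13 of 21 (-0.47), while the Pcdha cluster, outside the lowest 8, fell for 3 of 12 (-0.25). Counts may be split between the near-identical members of these clusters, so single members of Pcdha, Pcdhb and Pcdhga are uncertain. Pcdh1 had 24.4, 27.9 and 30.3 CPM in the positive fractions and 56.9, 78.6 and 85.9 in the inputs (-1.44 ± 0.10), a narrow spread on both sides. Serotonin receptors (Htr, -0.49), sodium channels (Scn, -0.43), lipid transporters of the Abca group (-0.43) and cadherins (Cdh, -0.39) completed the lowest 8. Within Abca the member Abca9 rose by 1.95 ± 0.18. By gene ontology, myelin sheath (-0.48; 14 of 20 lower), homophilic cell adhesion (-0.45; 39 of 54) and G protein-coupled receptor activity (-0.35; 98 of 202) had the lowest medians. The last term was pulled both ways, with 16 genes over 5-fold higher and 14 over 2-fold lower.

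The largest falls were also read in the other comparisons of the study. Against the same inputs, the negative fraction was lower for 19 of the 20 (log2 fold changes -1.51 to -0.76), a comparison in which 646 of 13749 genes (4.7%) were lower and 193 (1.4%) higher. Without any 1 of mice 192, 194, 209, 210 and 277 no gene was lower in that comparison by edgeR, although 1583 to 2105 were at an unadjusted p under 0.05. With all mice, DESeq2 called 1287 lower and the fit with mouse as a block 2684. Positive and negative fractions share those inputs, so these values are not independent. In Aldh1l1-NuTRAP mice, with 3304 of 13324 genes (24.8%) lower in the positive than the negative fraction and 3568 (26.8%) higher, 18 of the 20 were tested. There 6 fell, and 12 with mouse as a block (33.8% of all genes), and Itgb8 rose by 2.12 ± 0.53. The ratio of positive to negative fraction differed between the lines for Itgb8 (-3.10 ± 0.52, adjusted p = 5.53e-05), Xkr4 (1.47 ± 0.36, 0.00217) and Kcnk9 (1.30 ± 0.50, 0.0339), a test that called 25.6% of 13986 genes lower and 29.9% higher in the Cx3cr1 line. For the other 17 the difference did not pass, but with mouse as a block (30.9% of genes higher) it passed for 3 of them, Htr2a (0.95), Grin2a (1.14) and Pcdhac2 (0.96; adjusted p = 0.0405, 0.0158 and 0.0123).

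Transcript structure, which took no part in choosing these genes, differed between them. The median length of the 3′ untranslated region (3′ UTR) in GENCODE was 1009 bases over all tested genes, 512 over genes more than 5-fold higher and 2686 over genes more than 2-fold lower. Median transcript lengths were 3083, 2308 and 5736 bases, and median GC contents were 50.7%, 51.5% and 46.2%. At least 96.3% of each group had a coding transcript in the annotation. Of the 20 largest rises none had a 3′ UTR longer than the median of all tested genes, the longest being that of Fcrls at 622 bases. Among 19 of the 20 largest falls 14 did, with Kcnk9 at 11033, Grin2a at 9932 and Lnpep at 8342 bases, against 48 for Cpeb4.

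The relation was graded over all genes. When the genes were ordered by 3′ UTR length and divided into 5 groups of about equal size, in the group with the shortest 3′ UTRs (up to 310 bases) 42.1% were higher and 10.8% lower, with a median log2 fold change of 0.24. In the group with the longest (2402 bases or more) 10.3% were higher and 51.9% lower, with a median of -0.27. The 3 groups between held medians of 0.14, -0.02 and -0.13. The order of the 5 medians was the same in 6 of 6 mice, with the smallest span in mouse 155 (0.03 to -0.15) and the largest in mouse 210 (0.28 to -0.36). Genes over 5-fold higher were present in each of the 5 groups, 81, 95, 49, 42 and 28 from shortest to longest, and genes over 2-fold lower numbered 37, 14, 21, 29 and 139. Transcript length and GC content differed between the same classes of genes, and their part in this gradient was not tested.

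**Figure D5:**
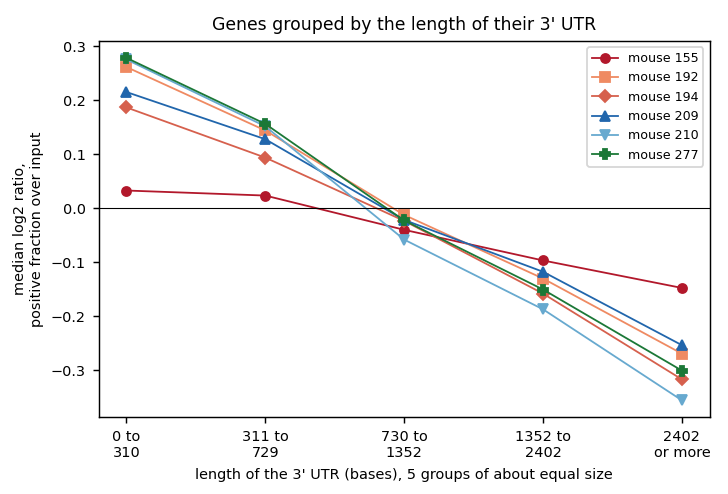
The horizontal axis groups genes into 5 sets of about equal size by 3′ UTR length in bases; the vertical axis gives the median log2 ratio of positive fraction over input in each of the 6 mice. Every line descends from between 0.03 and 0.28 at the shortest to between -0.36 and -0.15 at the longest.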

How the data were processed

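RNA of the input and positive fractions was sequenced as stranded poly(A) libraries. The deposited table holds raw gene counts that the authors obtained in Strand NGS with RefSeq genes on mm10. Of their nonzero values 82.4% were not whole, so the deposited values were handled like estimated counts, though the sources used here do not call them that. It also holds log2 values that the authors made with DESeq normalization, which were not used for tests. The column of every library was matched to a sample by its label, and 0 columns stayed without one. Of 36172 gene rows, 454 shared a symbol with another row, and 14711 were 0 in all 12 libraries. These zeros include Rps3a, a gene used by every cell, so a gene listed at 0 can be a failed estimate.

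Counts were rounded, and genes with over 20 counts in every library of at least 1 group were tested with edgeR 4.0.16 in R 4.3.3 (TMM scaling, robust quasi-likelihood test, two-sided, Benjamini-Hochberg threshold 0.05), without a block for mouse. CPM are TMM-scaled, and ratios within a mouse use log2 CPM with a prior count of 2. Fold changes carry a standard error derived from the test, the size of the log2 fold change divided by the square root of its F statistic. Scripts were tested on simulated data. Tables were handled in Python 3.11.15 with pandas 2.3.3. Same-numbered libraries come from the same mouse. The residuals of the positive fraction and input of a mouse correlated at -0.265, 0.190, 0.154, 0.115, 0.0705 and -0.00404 (mice 155, 192, 194, 209, 210 and 277), and the fit with mouse as a replicate block called 2625 genes higher and 3311 lower. Each library is a separate mouse and fraction. Alternatives were DESeq2 1.42.0, other scaling, count filters and leaving out mice.

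Named genes were the markers, the tag counterparts, the 20 largest rises and falls among genes over 20 counts in all libraries with 1 direction in 6 of 6 mice, up to 4 members of each of 46 lists by size of change, and the 2 most changed members of the 8 highest and 8 lowest families. Others are said to be chosen after their values were seen. A few genes that the rule names are not reported here. The libraries, lists and rule were chosen with earlier results of these data known. Total counts per library limit precision for low genes, and the SE follows from the spread between libraries as the test models it, without pairing by mouse. Promoters were taken from RefSeq (GRCm38.p6, the assembly of mm10), and transcript lengths from GENCODE M21, using the transcript with the longest coding sequence.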

Additional observations from a re-analysis of the deposited data

Results flagged for a closer look

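In 13 of the 104 groups of 6 values examined, 1 library or mouse stood apart by Dixon's criterion (the gap to the nearest value divided by the range, given first below). Chance gives this in about 1 in 20 independent groups of normally spread values. The groups here share libraries and mice, and CPM were taken without a log, so 13 of 104 cannot be set against that rate. Mouse 194 was the extreme for the positive fractions of Cx3cr1 (0.638; 445 CPM, next 287), Bin2 (0.672), Sfpi1 (0.698), Trem2 (0.662) and Pf4 (0.663), all highest, and Ugt8a (0.627; lowest at 13, next 27.9). It was also the extreme for the median log2 ratio of the lysosomal list (0.708; 1.19, next 0.68) and of the monocyte and neutrophil list (0.679; 4.58, next 3.54), both highest, and of the choroid plexus (0.702; -1.59, next -0.74), oligodendrocyte (0.678; -1.72, next -0.94) and monoaminergic and cholinergic (0.781; -0.92, next -0.46) lists, all lowest. In the inputs, 1 library stood apart for Rpl10a (0.659; 121 CPM, next 95.0) and 1 for Pf4 (0.690; 0.791 CPM, next 0.549).

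The log2 ratio of positive to negative fraction differed between the Cx3cr1 and Aldh1l1 lines, by the interaction term of the edgeR fit with Benjamini-Hochberg adjustment, for Itgb8 (-3.10, adjusted p = 5.53e-05), Kcnk9 (1.30, adjusted p = 0.0339) and Xkr4 (1.47, adjusted p = 0.00217). In all 26 genes were examined, the 20 largest falls with Ppp1r9a, Limch1, Dbn1, Fbxo34, Actn2 and Svil, and over 13986 genes the term was called higher for 29.9% and lower for 25.6%. Among genes outside the 26, C1qa (6.38) and Col24a1 (2.74, adjusted p = 0.0338) also passed.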

How the results depend on the processing

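The counts of genes higher and lower in the positive fraction stayed within 1.5 times of 3217 and 3548 under every alternative run. Genes over 2-fold lower numbered 247, with 142 at a minimum of 100 counts and 468 without mice 155, 192 and 194, and genes over 5-fold higher numbered 304, with 476 without a count filter. The comparison of negative fraction with input was unstable: 193 genes higher and 646 lower became 763 and 1287 with DESeq2, 51 and 221 without a filter, 2432 and 2684 with the replicate block, and 0 and 59 in the edgeR fit of all 29 libraries, where 612 and 1374 had an unadjusted p under 0.05. Leaving out 1 mouse gave 0 to 1774 higher and 0 to 2040 lower, with the highest counts without mouse 155 and no call without mice 192, 209, 210 or 277 in turn, although 3868, 3302, 2752 and 3527 genes then had an unadjusted p under 0.05; without mouse 194 3 genes were called higher. In the Aldh1l1 line leaving out 1 mouse gave 1979 to 4887 higher and 1600 to 4845 lower, and the replicate block 4927 and 4508. Without mice 155, 192 and 194 the direction turned for Hba-a1 (0.24), Itga10 (-0.14), Iqgap1 (-0.049), Plec (-0.40) and Dst (-0.13), and leaving out 1 mouse moved Hba-a1, at -0.16, between -0.36 and 0.0054 (without mouse 194). Among gene lists, the complement median of 1.55 was 2.67 at a minimum of 100 counts, 2.14 without mouse 192 and 0.79 without mouse 194. That of monoaminergic and cholinergic genes (-0.48) was -0.21 at a minimum of 100 counts and -0.22 without mice 155, 192 and 194, and that of oligodendrocyte precursor genes (-0.65) was -0.55 without mouse 194. The medians of pericyte and cerebellar genes turned to 0.15 and 0.03 without mice 155, 192 and 194, and those of cytokines and chemokines, astrocyte, interneuron, postsynaptic, immediate early, translation factor and glycolysis genes moved to 0.41, -0.19, 0.51, -0.55, -0.01, 0.19 and 0.35. Without mice 209, 210 and 277 those of cytokines and chemokines, cortical glutamatergic and aminoacyl-tRNA synthetase genes moved to 0.48, -0.21 and 0.02. The share of promoters with the PU.1 letters was 10.5% over genes more than 2-fold higher. With the replicate block 15 of 223 named genes no longer passed, and it changed no other call among them; Xist, which is not among the 223, passed with the block alone (2.92 against 4.03, adjusted p = 0.00611 against 0.124). The cause of these changes was not tested. Low input counts limit the fold changes of the rarest myeloid genes.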

Other observations

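Npcd was at 0 CPM in the inputs of mice 209 and 210 but at 353 to 411 in the other inputs and at 318 to 373 in every positive fraction. In mouse 210 Pomc, which encodes the precursor of pituitary and hypothalamic peptides, reached 461 CPM after pulldown and 310 before it, against at most 12.0 in the other libraries of both groups.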
